A study of Caenorhabditis elegans with 9 samples.

Results

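Transcripts of 9 autophagy genes (of 17118 genes with a probe set of their own) were examined in unfed Caenorhabditis elegans larvae of the first stage, L1: lgg-1, lgg-2, bec-1, unc-51, atg-7, atg-9, atg-18, sqst-1 and epg-5. They were taken by name as every probe set (a group of short array probes read as 1 value) whose platform gene symbol is one of these, which gave 13 of the 22548 probe sets tested: 2 each for lgg-2, bec-1, atg-18 and sqst-1, and 1 each for the other 5 genes. The 3 strains had 3 arrays each: larvae labelled ogt-1(ok430), a loss of the O-GlcNAc transferase; larvae labelled oga-1(ok1207), a loss of the O-GlcNAcase; and wild type larvae. OGT-1 attaches the sugar O-GlcNAc to nuclear and cytoplasmic proteins and OGA-1 takes it off. All strains came from bleached gravid adults and were collected as whole larvae after 48 h in sterile buffer, per the labels. Starvation is common to all 3 strains, and no fed sample was compared. Each array is labelled a biological replicate, and each mutant strain is represented by 1 allele. In such bulk samples fewer cells of a type and less RNA per cell cannot be told apart.

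Autophagy encloses cytoplasm in a double membrane, the autophagosome, and delivers it to lysosomes, where it is broken down and its building blocks are reused. The UNC-51 kinase starts the process, BEC-1 acts in the lipid kinase complex that marks the forming membrane, and ATG-9 and ATG-18 help the membrane grow. ATG-7 activates the ubiquitin-like proteins LGG-1 and LGG-2 for attachment to lipid, SQST-1 brings cargo to LGG-1, and EPG-5 acts when autophagosomes mature into degradative organelles. In worms, autophagy genes are known for supporting the survival of L1 larvae without food. Arrays read transcript levels, and neither the lipid-bound proteins nor autophagic activity was measured.

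Values are deposited log2 summaries, so a difference of 1 is a 2-fold change, and their precision is limited by the number of arrays. Array means were 7.36 on all 9 arrays, while the SD over probe sets ran from 1.91 on oga-1 replicate 2 to 2.05 on wild type replicate 1. The 5 yeast control probe sets had strain means of 4.41 to 6.26. All strain means of the 13 autophagy probe sets were above that, by 0.22 at the least (bec-1, dimmer probe set). The bacterial controls ThrX-3 and DapX-3 averaged 6.57 to 6.87 by strain, and the dimmer bec-1 probe set 6.48 to 6.62. That bec-1 probe set was therefore not shown to be above background. The 3'/5' log2 difference of the actin control, a sign of RNA integrity, was 0.52 ± 0.04 in ogt-1, 0.48 ± 0.13 in oga-1 and 0.56 ± 0.29 in wild type (SD, n = 3 each). It averaged -0.03 in ogt-1, 0.08 in oga-1 and 0.105 in wild type for Gapdh, and 2.86, 2.85 and 2.94 for ubiquitin. These controls thus differed widely from each other. Summed adult and oocyte markers (9 genes, vitellogenins among them) had log2 values of 9.60 to 9.64 in ogt-1, 9.50 to 9.59 in oga-1 and 9.57 to 9.69 in wild type. Of these 9 genes, the yolk gene vit-2 averaged 4.67 in ogt-1, 4.62 in oga-1 and 4.56 in wild type, within the yeast control range. This value of 1 gene does not show where the other markers of the sum lay. Of the mutated genes, the dimmer of 2 ogt-1 probe sets differed from wild type by -0.61 ± 0.11 (SE) on the ogt-1 arrays (limma adjusted p = 0.0124). That call did not hold when ogt-1 replicate 2 or 3 was left out (adjusted p up to 0.0710), and the brighter differed by -0.22 (adjusted p = 0.581). In oga-1 larvae these probe sets of ogt-1 differed from wild type by -0.40 (adjusted p = 0.109) and -0.42 (adjusted p = 0.240). The average reading of ogt-1 was thus lower than wild type in both mutants. The 3 oga-1 probe sets differed by 0.03, -0.05 and -0.02 between oga-1 and wild type arrays (adjusted p = 0.972, 0.953 and 0.986), so the level of that transcript does not check the oga-1 label. No source used here gives the place of the probes relative to the deletions.

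No autophagy probe set differed between any 2 strains at an adjusted p under 0.05. The moderated test of limma, fitted on all 9 arrays and adjusted by Benjamini-Hochberg over the 22548 probe sets, called 0 of 13 between ogt-1 and wild type, where 3.91% of all probe sets were called (1.79% higher and 2.12% lower in ogt-1). It called 0 of 13 between oga-1 and wild type (1.93% of all, 0.727% higher and 1.21% lower in oga-1) and 0 of 13 between oga-1 and ogt-1 (0.514% of all, 0.146% higher and 0.368% lower in oga-1). At an unadjusted p under 0.05 the count was 1 of 13 in the first comparison (16.7% of all probe sets), 3 of 13 in the next (14% of all) and 1 of 13 between the mutants (5.22% of all). Of the 13, 12 were brighter than the median probe set. Among all probe sets brighter than the median, 5.84%, 2.93% and 0.736% were called in the 3 comparisons, in the same order. With backgrounds this low, 0 of 13 is close to the share of all probe sets. The estimates ran from -0.06 to 0.34 in ogt-1 and from -0.35 to 0.34 in oga-1 relative to wild type, and from -0.40 to 0.18 in oga-1 relative to ogt-1. The 95% intervals of all 13 probe sets in each comparison, not adjusted for their number, lay within 1 log2 unit of 0: the outermost bounds were a 1.55-fold higher and a 1.23-fold lower level in ogt-1 than in wild type, and a 1.57-fold higher and a 1.62-fold lower level in oga-1 than in wild type. To pass, a probe set with the same standard error would have needed a log2 change of 0.38 to 0.63 in ogt-1 and 0.42 to 0.70 in oga-1 against wild type, and 0.50 to 0.83 between the mutants. These are sizes of an estimate, not limits of detection for a true change. An estimate below them could not pass, so these results do not show that the levels are the same.

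**Figure D1:**
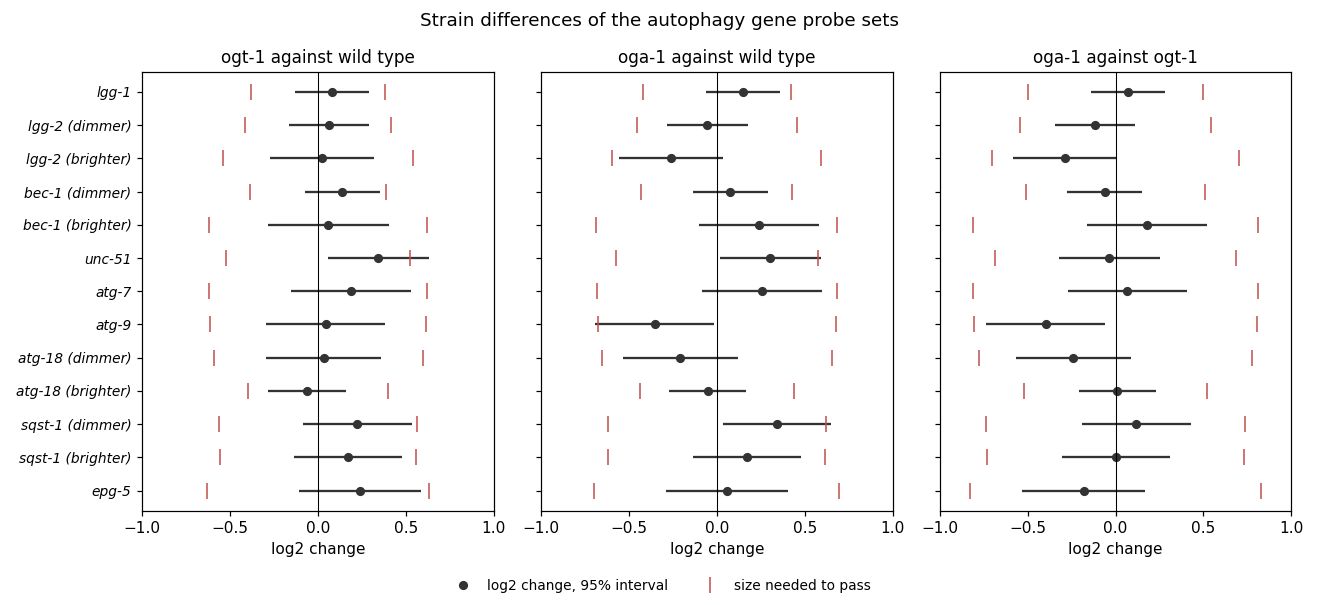
Estimated log2 change (x axis; points, with 95% intervals as lines) of the 13 autophagy probe sets (y axis) for ogt-1 against wild type, oga-1 against wild type and oga-1 against ogt-1; red ticks mark the change each probe set would have needed to pass the adjusted p of 0.05. No point reaches its ticks, and unc-51, atg-9 and the dimmer sqst-1 probe set lie farthest from 0 in a comparison with wild type.

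The initiating kinase gene unc-51, on chromosome V of assembly WBcel235, came nearest of the 9 genes to the threshold, in ogt-1 against wild type. Its probe set (193555_s_at) read 10.92, 10.81 and 10.87 in ogt-1, 10.91, 10.93 and 10.65 in oga-1 and 10.78, 10.29 and 10.50 in wild type (replicates 1, 2 and 3, here and throughout). All 3 ogt-1 arrays were above all 3 wild type arrays, while oga-1 overlapped wild type through oga-1 replicate 3 and wild type replicate 1. The difference from wild type was 0.34 ± 0.13 in ogt-1 (SE, adjusted p = 0.200) and 0.31 ± 0.13 in oga-1 (adjusted p = 0.320). The difference of oga-1 from ogt-1 was -0.04 (adjusted p = 0.9997). The order of the strain means was ogt-1, oga-1 and wild type from high to low, and no neighbours in it differed by the test. Wild type replicate 1 was the array nearest to the mutants, and without it the difference was 0.47 in ogt-1 (adjusted p = 0.0787) and 0.43 in oga-1 (adjusted p = 0.142). Without wild type replicate 2, the lowest of the 9 arrays, the ogt-1 difference was 0.23.

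Beclin is encoded by bec-1, on chromosome IV, and was read by 2 probe sets. The brighter (181053_s_at) read 9.10, 9.50 and 9.47 in ogt-1, 9.73, 9.56 and 9.31 in oga-1 and 9.46, 9.40 and 9.02 in wild type. These values overlap between all strains, with a low array in ogt-1 and in wild type, and the differences from wild type were 0.06 ± 0.16 in ogt-1 and 0.24 ± 0.16 in oga-1 (adjusted p = 0.919 and 0.586). Between arrays of the same replicate number, which pair oga-1 with wild type by their deviations, oga-1 was higher by 0.27, 0.16 and 0.29. With the number as a block on these 2 strains alone the adjusted p was 0.230. The dimmer probe set (187789_at) read 6.62, 6.58 and 6.65 in ogt-1, 6.58, 6.61 and 6.48 in oga-1 and 6.52, 6.57 and 6.36 in wild type. Here the ogt-1 arrays were all above the wild type arrays, by a mean of 0.14 ± 0.10 (adjusted p = 0.565), but this probe set lies closest of the 13 to the level of the yeast controls. Without wild type replicate 3 the ogt-1 difference of the brighter probe set was -0.08.

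The membrane protein gene atg-9 and the lipid-binding WIPI family gene atg-18, both on chromosome V, act in the growth of the membrane. The atg-9 probe set (182587_at) read 9.77, 9.38 and 9.19 in ogt-1, 8.78, 9.13 and 9.23 in oga-1 and 9.44, 9.34 and 9.42 in wild type. The oga-1 arrays were all below the wild type arrays, whereas ogt-1 lay on both sides of wild type. The oga-1 mean was 0.35 ± 0.15 lower than wild type (log2 change -0.35, adjusted p = 0.328) and 0.40 ± 0.15 lower than ogt-1 (-0.40, adjusted p = 0.767), the widest gap between strain means among the 13 probe sets. The difference of ogt-1 from wild type was 0.05. The gap to wild type narrowed to -0.22 without oga-1 replicate 1, and the gap to ogt-1 to -0.24 without ogt-1 replicate 1 and -0.26 without oga-1 replicate 1. Over the 9 arrays the single-gene probe sets most like atg-9 were those of stg-2 (Pearson r = 0.926), islo-1 (0.917) and crh-1, which encodes the worm CREB transcription factor (0.913), given as a description over arrays that share strains and normalisation.

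For atg-18 the 2 probe sets did not vary together: their correlation over the 9 arrays was -0.25. The brighter (185259_at) read 12.02, 12.18 and 12.19 in ogt-1, 12.10, 12.22 and 12.11 in oga-1 and 12.09, 12.23 and 12.27 in wild type, with all strains overlapping and differences from wild type of -0.06 in ogt-1 and -0.05 in oga-1. The dimmer (174871_at) read 11.44, 11.55 and 11.51 in ogt-1, 11.53, 10.86 and 11.39 in oga-1 and 11.51, 11.43 and 11.47 in wild type. On it oga-1 replicate 2 stood apart from the other 8 arrays, and the oga-1 difference from wild type, -0.21 ± 0.15 (adjusted p = 0.633), became -0.01 without that array.

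**Figure D2:**
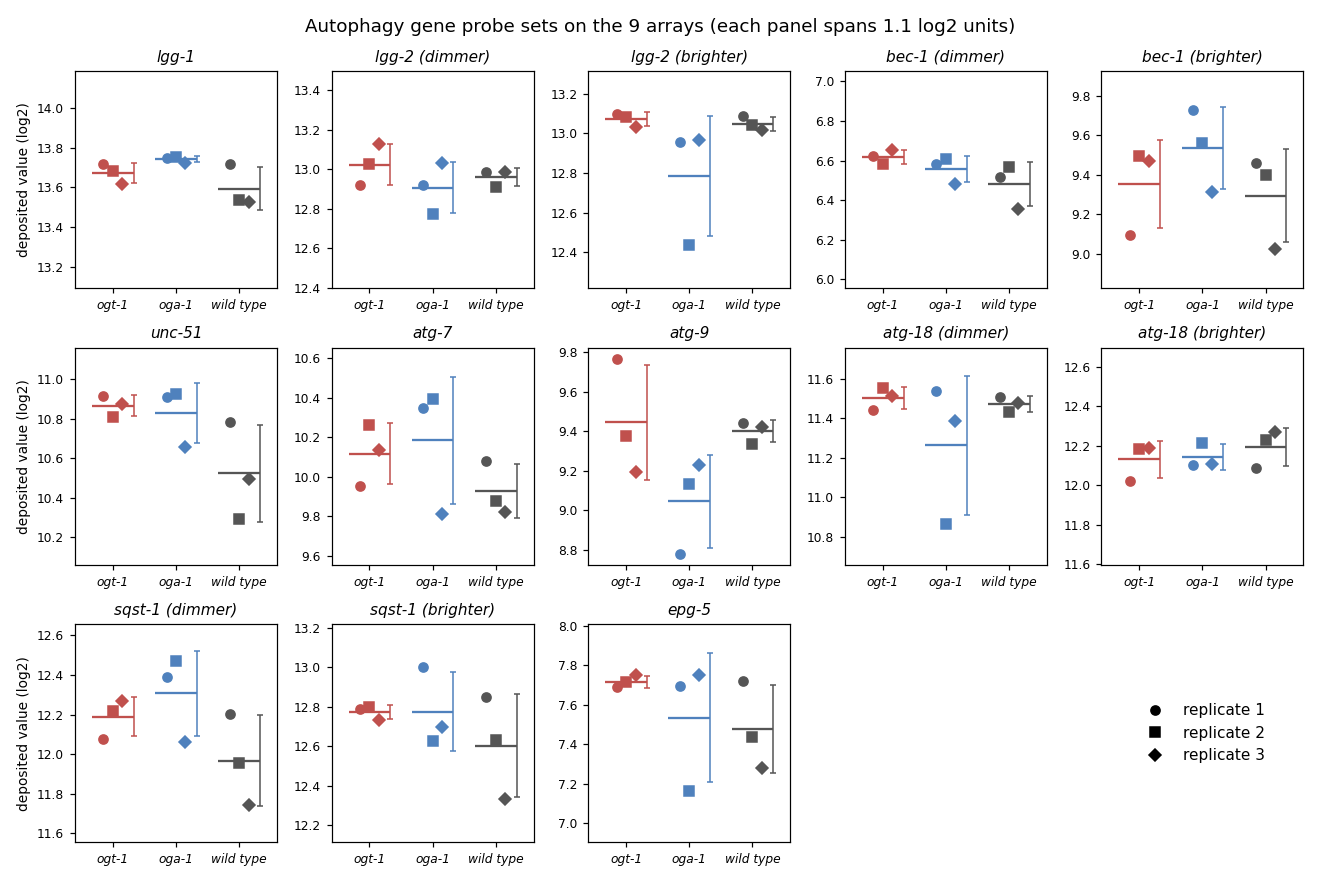
Deposited log2 values (y axis, each panel spanning 1.1 log2 units) of the 13 autophagy probe sets on the 9 arrays, by strain (x axis: ogt-1, oga-1, wild type); circles, squares and diamonds are replicates 1, 2 and 3, horizontal bars are strain means and error bars the SD (n = 3). The strains overlap in most panels, and oga-1 replicate 2 sits low for the brighter lgg-2, the dimmer atg-18 and the epg-5 probe sets.

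The ubiquitin-like conjugation genes showed small differences. The E1-like activating enzyme gene atg-7 (188818_s_at, chromosome IV) read 9.95, 10.26 and 10.14 in ogt-1, 10.35, 10.39 and 9.81 in oga-1 and 10.08, 9.88 and 9.82 in wild type. Of its oga-1 arrays 2 were above the wild type range and 1 just below it, and the differences from wild type were 0.19 ± 0.16 in ogt-1 and 0.26 ± 0.16 in oga-1 (adjusted p = 0.645 and 0.546). Without oga-1 replicate 3 the oga-1 difference was 0.44 (adjusted p = 0.107).

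LGG-1 and LGG-2 are the worm members of the Atg8 family, whose lipid-bound forms mark autophagosomes. The lgg-1 probe set (188536_s_at, chromosome II) read 13.72, 13.68 and 13.62 in ogt-1, 13.75, 13.75 and 13.73 in oga-1 and 13.72, 13.54 and 13.53 in wild type. The oga-1 arrays were all above both other strains, by 0.15 ± 0.10 over wild type (adjusted p = 0.584) and 0.07 ± 0.10 over ogt-1 (adjusted p = 0.9997). Replicate 1 of wild type read like the mutants, and the order of the means, oga-1, ogt-1 and wild type, holds no neighbours that differed by the test. Its intervals were among the narrowest of the 13 probe sets: from -0.13 to 0.29 for ogt-1 and from -0.06 to 0.36 for oga-1 against wild type.

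For lgg-2, on chromosome IV, the brighter probe set (174438_at) read 13.10, 13.08 and 13.03 in ogt-1, 12.96, 12.43 and 12.97 in oga-1 and 13.09, 13.04 and 13.02 in wild type. All oga-1 arrays were below all arrays of the other strains, with oga-1 replicate 2 far below. The oga-1 mean differed from wild type by -0.26 ± 0.14 (adjusted p = 0.438) and from ogt-1 by -0.29 ± 0.14 (adjusted p = 0.986), and without oga-1 replicate 2 these differences were -0.09 (adjusted p = 0.788) and -0.11. The dimmer probe set (193745_at) read 12.92, 13.03 and 13.13 in ogt-1, 12.92, 12.77 and 13.03 in oga-1 and 12.99, 12.91 and 12.99 in wild type. It overlapped between all strains, with differences from wild type of 0.06 in ogt-1 and -0.05 in oga-1, where it was 0.01 without oga-1 replicate 2.

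The cargo receptor gene sqst-1, the worm homologue of p62, on chromosome IV, read higher on average in both mutants by both of its probe sets. The dimmer (190566_at) read 12.08, 12.22 and 12.27 in ogt-1, 12.39, 12.47 and 12.06 in oga-1 and 12.20, 11.95 and 11.74 in wild type. The differences from wild type were 0.22 ± 0.14 in ogt-1 (adjusted p = 0.505) and 0.34 ± 0.14 in oga-1 (adjusted p = 0.295). The brighter (171737_x_at) read 12.79, 12.80 and 12.73 in ogt-1, 13.001, 12.63 and 12.70 in oga-1 and 12.85, 12.63 and 12.33 in wild type, and differed from wild type by 0.17 ± 0.14 in either mutant (adjusted p = 0.645 in ogt-1 and 0.697 in oga-1). Each mutant overlapped wild type on both probe sets, where wild type replicate 1 was the high array and replicate 3 the low one of that strain. With wild type replicate 3 left out, the dimmer probe set differed by 0.11 in ogt-1 and 0.23 in oga-1, and the brighter by 0.04 in either mutant. With wild type replicate 1 left out instead, the dimmer differed by 0.34 in ogt-1 and 0.46 in oga-1, and the brighter by 0.29 in either mutant. The size of these differences thus depended on which wild type arrays were kept. The mean of both probe sets differed from wild type by 0.20 ± 0.13 in ogt-1 (adjusted p = 0.536) and by 0.26 ± 0.13 in oga-1 (adjusted p = 0.434).

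The tethering factor gene epg-5 (186623_at, chromosome II) read 7.69, 7.71 and 7.75 in ogt-1, 7.69, 7.16 and 7.75 in oga-1 and 7.72, 7.44 and 7.28 in wild type. The ogt-1 arrays lay close together near the top of the wild type range, and oga-1 replicate 2 was the lowest of the 9 arrays. Its differences from wild type were 0.24 ± 0.16 in ogt-1 (adjusted p = 0.533) and 0.06 ± 0.16 in oga-1 (adjusted p = 0.941), and the oga-1 difference was 0.24 without oga-1 replicate 2 (adjusted p = 0.469).

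The spread between replicates was summarised by strain, without a test. The median SD of the 13 probe sets was 0.056 in ogt-1, 0.208 in oga-1 and 0.110 in wild type, where the medians over all probe sets were 0.111 in ogt-1, 0.151 in oga-1 and 0.139 in wild type. Wild type replicate 1 was the highest of its strain for 10 of the 13 probe sets and wild type replicate 3 the lowest for 8. In oga-1, replicate 2 was the highest for 6 and the lowest for 5, and its largest deviation from the strain mean was 0.40, for the dimmer atg-18 probe set. Arrays also differed over all probe sets brighter than the median. There the median deviation was 0.050, -0.061 and 0.008 on wild type replicates 1, 2 and 3. It was 0.021, -0.084 and 0.069 on oga-1 replicates 1, 2 and 3. The part of RNA quality, array quality or larval state in this spread was not tested.

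**Figure D3:**
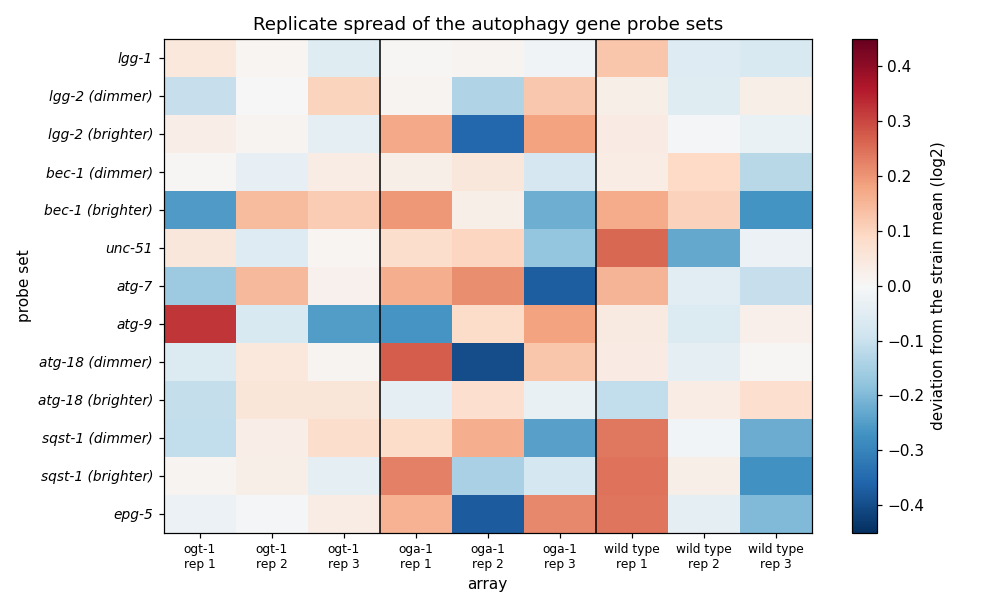
Deviation of each array from its strain mean (colour, log2 units) for the 13 autophagy probe sets (rows) on the 3 ogt-1, 3 oga-1 and 3 wild type arrays (columns). Oga-1 replicate 2 is low by over 0.3 for the brighter lgg-2, the dimmer atg-18 and the epg-5 probe sets, and wild type replicate 1 is mostly above its strain mean.

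Some members varied together across the 9 arrays, which share normalisation and strain. The brighter lgg-2 and the dimmer atg-18 probe sets correlated at 0.951, and at 0.194 without oga-1 replicate 2, so this likeness rested on that array. The pairs formed by atg-7, the brighter bec-1 and the dimmer sqst-1 probe sets correlated at 0.803 to 0.903, and at 0.805 to 0.865 without that array. Over all 78 pairs of probe sets the correlations ran from -0.781 to 0.951, with a median of 0.0455, and 12 pairs were above 0.7.

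The signs of the estimates were counted over the 13 probe sets. Against wild type, 12 of 13 were above 0 in ogt-1, with a median of 0.078, where 51.3% of all probe sets were above 0 with a median of 0.005, and 56.4% of those brighter than the median. With quantile normalisation the count was 9 of 13. In oga-1, 8 of 13 were above 0, with a median of 0.076, against 52.4% of all and 49.3% of those brighter than the median, and between oga-1 and ogt-1 6 of 13 were above 0, against 50.5% of all and 39.5% of those brighter than the median. The arrays of the strains did not overlap for 2 of 13 probe sets between ogt-1 and wild type (15.4%, against 22.5% of all probe sets), 3 of 13 between oga-1 and wild type (23.1%, against 16.5%) and 2 of 13 between the mutants (15.4%, against 9.87%). Between oga-1 and wild type arrays of the same number, 7 of 13 probe sets differed in 1 direction in all 3 pairs (53.8%, against 39% of all): lgg-1, both of bec-1, unc-51 and the dimmer sqst-1 were higher in oga-1, and the brighter lgg-2 and atg-9 were lower. The dimmer bec-1 probe set, not shown to be above background, is counted among these 7 and among the 2 without overlap between ogt-1 and wild type. Both comparisons with wild type share the wild type arrays, and none of these shares was tested.

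Of 19 further measured genes of the core machinery (initiation, nucleation, lipid transfer, conjugation and the metazoan epg genes), 0 were called by limma in any of the 3 comparisons. An unadjusted p under 0.05 was met by 3 of 19 genes in ogt-1 and 0 of 19 in oga-1 against wild type, where 16.7% and 14% of all probe sets met it, and by 1 of 19 between the mutants (5.22% of all). In ogt-1, 16 of 19 estimates were above 0 (14 to 17 with 1 array left out), with a median of 0.14, against 51.3% of all probe sets and 56.4% of those brighter than the median. The nearest to the threshold was atg-16.1, whose product helps attach LGG proteins to lipid: it read 9.04, 9.02 and 9.19 in ogt-1, 8.83, 9.09 and 8.77 in oga-1 and 8.62, 8.75 and 8.60 in wild type. Both mutants lay wholly above wild type, by 0.42 ± 0.11 in ogt-1 (adjusted p = 0.0612) and 0.24 ± 0.11 in oga-1 (adjusted p = 0.365). It was called for ogt-1 under 4 of the alternatives tried, among them without oga-1 replicate 2 (adjusted p = 0.0287), and not under the others. The gene of the lipid kinase VPS-34, the partner of BEC-1, differed from wild type by 0.37 ± 0.12 in ogt-1 (adjusted p = 0.132) and 0.23 ± 0.12 in oga-1 (adjusted p = 0.465). A further WIPI family gene, epg-6, differed by 0.36 ± 0.13 in ogt-1 (adjusted p = 0.157). Between oga-1 and ogt-1, 2 of the 19 estimates were above 0, with a median of -0.10, where 39.5% of the probe sets brighter than the median were above 0. Without oga-1 replicate 2 alone, 9 of 19 were above 0 and the median was -0.013, so this count rested on that array.

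Among genes of selective autophagy 1 of 7 rose in ogt-1 and none fell, where 1.79% of all probe sets rose and 2.12% fell. It was fndc-1, a homologue of the mitophagy receptor FUNDC1: it read 9.99, 10.10 and 10.11 in ogt-1, 9.92, 9.83 and 9.86 in oga-1 and 9.66, 9.73 and 9.35 in wild type. It rose by 0.49 ± 0.11 in ogt-1, or 1.40-fold (adjusted p = 0.0380), with all ogt-1 arrays above all wild type arrays. The call was lost without wild type replicate 1 or 3, when any single ogt-1 array was left out and when the first oga-1 array was (adjusted p up to 0.157), with quantile normalisation (adjusted p = 0.0618) and on the 2 strains alone (adjusted p = 0.0539). In oga-1 it differed from wild type by 0.29 ± 0.11 (adjusted p = 0.266), and 0 of 7 genes of the list were called. The parkin gene pdr-1, also of mitophagy, differed from wild type by -0.36 ± 0.12 in oga-1 (adjusted p = 0.157). The germ granule gene pgl-1, whose protein is an autophagy substrate in embryos, differed by -0.39 ± 0.11 in ogt-1 (adjusted p = 0.0723). The linear values of 5 germline markers, pgl-1 among them, were summed on each array. The log2 of this sum was 9.87 to 9.95 in ogt-1, 10.21 to 10.37 in oga-1 and 10.19 to 10.36 in wild type. Of these markers 1 of 5 fell in ogt-1, where 2.12% of all probe sets fell: the germ granule helicase gene glh-1 (-0.48, adjusted p = 0.0434). The part of germline RNA in the pgl-1 value was not tested.

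Genes of fusion with lysosomes, of lysosomes and of upstream control held 0 calls by limma in the 3 comparisons. Between oga-1 and ogt-1, 2 of 11 fusion, 3 of 17 lysosome and 6 of 13 upstream genes were above 0. Among probe sets brighter than the median 39.5% were. Without oga-1 replicate 2 the counts were 3 of 11, 5 of 17 and 7 of 13, and none of these counts was tested. All 11 fusion genes had estimates above 0 in ogt-1 against wild type, with a median of 0.21, where 51.3% of all probe sets and 56.4% of those brighter than the median were above 0. The count was 9 of 11 without wild type replicate 3, and 10 of 11 without wild type replicate 1 or without ogt-1 replicate 1 or 2. At an unadjusted p under 0.05 were 3 of the 11 (16.7% of all probe sets), the HOPS tether genes vps-18 (0.33) and vps-39 (0.31) and the RAB-7 exchange factor gene sand-1 (0.42) (adjusted p = 0.139, 0.216 and 0.237). In oga-1, 9 of 11 were above 0, with a median of 0.11, against 52.4% of all probe sets and 49.3% of those brighter than the median. The count was 7 of 11 without wild type replicate 2 or without oga-1 replicate 1. The fusion SNARE gene syx-17 was highest in oga-1, at 0.41 ± 0.14 (adjusted p = 0.198). Its partner gene snap-29, whose human and worm proteins are known to carry O-GlcNAc and which was chosen after its values were seen, differed from wild type by 0.25 ± 0.15 in ogt-1 (adjusted p = 0.450) and 0.15 ± 0.15 in oga-1 (adjusted p = 0.753). Of 17 lysosome genes, 2 in ogt-1 and 0 in oga-1 had an unadjusted p under 0.05 against wild type (16.7% and 14% of all probe sets): the proton pump subunit genes unc-32 (0.38, adjusted p = 0.187) and vha-5 (-0.44, adjusted p = 0.247). Of 13 regulators, 2 in ogt-1, the Rag GTPase genes raga-1 (0.31) and ragc-1 (0.34), and 1 in oga-1, mxl-3, a repressor of lysosomal lipase genes (0.48), had such a p (adjusted p = 0.262, 0.192 and 0.279), again against 16.7% and 14% of all. For hlh-30, the worm TFEB that switches on autophagy and lysosome genes, likewise chosen after its values were seen, the brightest of 3 probe sets differed from wild type by 0.04 in ogt-1 and -0.11 in oga-1 (adjusted p = 0.961 and 0.899). The others differed by 0.09 and -0.21 in ogt-1 and by 0.22 and -0.10 in oga-1, so the probe sets did not share a direction, and none was called.

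**Figure D4:**
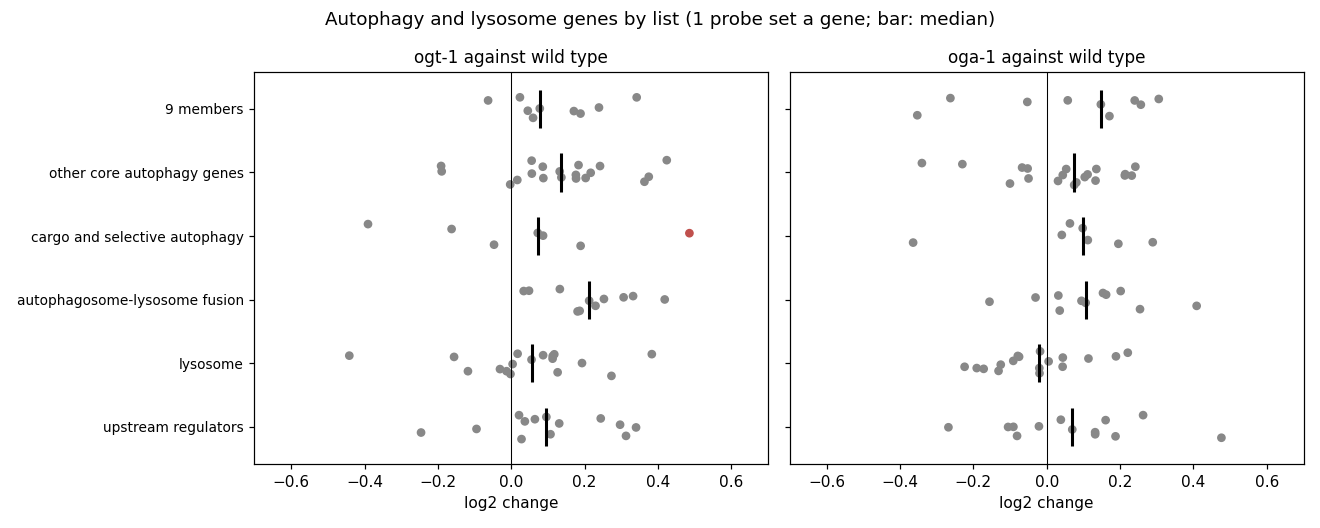
Log2 change against wild type (x axis) of the 9 autophagy genes and of 5 lists of related genes (y axis) in ogt-1 and in oga-1; each point is 1 gene, read by its brightest probe set, bars are list medians and red marks a called gene. The single red point is fndc-1 in ogt-1, and all 11 fusion genes lie right of 0 in ogt-1, against 9 of 11 when wild type replicate 3 is left out.

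Some tissue markers also differed between the strains. For each tissue the linear marker values were summed on each array and the log2 of the sum taken, so the brightest markers weigh most. The log2 of the sum of 5 body wall muscle markers was 14.88 to 14.89 in ogt-1, 14.85 to 14.98 in oga-1 and 14.32 to 14.68 in wild type. That of 4 pharyngeal muscle markers was 13.27 to 13.61 in ogt-1, 13.34 to 13.55 in oga-1 and 13.55 to 13.86 in wild type. Among the body wall muscle markers 1 of 5 rose in ogt-1 by limma, where 1.79% of all probe sets rose. It was the myosin gene unc-54 (0.76, adjusted p = 0.00939). In oga-1, 2 of 5 rose, where 0.727% of all did: unc-54 (0.81, adjusted p = 0.0139) and the further myosin gene myo-3 (0.90, adjusted p = 0.0490). In each mutant 4 of the 5 estimates were above 0 and 1 below, that of unc-22 (-0.33 in ogt-1 and -0.04 in oga-1). Intestinal sums were 13.59 to 13.67 in ogt-1, 13.62 to 13.68 in oga-1 and 13.62 to 13.68 in wild type. Neuronal sums were 14.36 to 14.47 in ogt-1, 14.40 to 14.56 in oga-1 and 14.41 to 14.49 in wild type. Hypodermal sums were 11.07 to 11.26 in ogt-1, 10.80 to 10.99 in oga-1 and 11.05 to 11.14 in wild type. No pharyngeal or hypodermal marker passed the test of limma (0 of 4 and 0 of 5 in each comparison). The part of the muscle marker difference in the autophagy values was not tested.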

How the data were processed

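Per the labels' protocols, total RNA was extracted with Trizol from whole starved larvae, and biotin-labelled cRNA from 4 ug was hybridised to 1-colour Affymetrix arrays. The authors deposited a log2 value for each probe set and array, and all array means are equal. MAS5, RMA and Partek stand in the submitters' processing notes, with no role given for each. After 77 control probe sets were left out, 22548 probe sets entered limma 3.58.1 (R 4.3.3) (a mean per strain, 6 residual and 5.65 prior degrees of freedom), with no filter or further normalisation. Probe sets were named from the platform annotation; a list gene takes the value of its brightest probe set with 1 symbol. Of 22 listed core names, 3 are older names of listed genes; pink-1 and vamp-7 had no 1-symbol probe set.

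Members, lists and rules were chosen with earlier results of these data known. Named genes are all members, called list genes, genes of smallest p in a list (not all printed), and the 3 most alike to atg-9. The genes snap-29, hlh-30, unc-22 and called markers were added after their values were seen, as were the yeast and bacterial control levels. Replicate numbers pair oga-1 with wild type arrays by their deviations (r = 0.481, 0.432 and 0.357), not ogt-1 with wild type (-0.096, -0.0155 and -0.00231). Probe suffixes s and x mark sets that can bind related transcripts. The planned search of promoters for motifs was not run. Probe-level data and array images were not used here.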

Additional observations from a re-analysis of the deposited data

How the results depend on the processing

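The count of called autophagy probe sets was 0 in the 3 comparisons under every alternative run: 2 other scalings (quantile normalisation, centring on the median), 2 filters on dim probe sets (the lowest 25% or 50%), a replicate block, robust fitting with a trend in the variance, 2 strains alone, adjusted p under 0.01, probe sets averaged per gene, each array left out in turn, and 2 alternatives added after seeing the data (the replicate block on 2 strains alone, and both arrays of narrowest spread left out, the second of wild type and of oga-1). The replicate block changed no call: 0 autophagy probe sets and 0 other core genes were called with it, and the lowest adjusted p was 0.105, for the dimmer sqst-1 probe set in oga-1 against wild type on 2 strains alone. The count of other core genes called for ogt-1 against wild type, 0 as reported, was 1 with median centring, 1 on 2 strains alone, 1 without oga-1 replicate 2 (from 0 to 1 over the arrays left out) and 2 without both arrays of narrow spread. The genes were atg-16.1 in each and epg-6 in the last. Of 738 recomputed log2 changes of the 13 probe sets, 25 had the opposite sign, all without a call. Of these 25, only 1 moved by more than the replicate SD. It was that of the brighter lgg-2 probe set in ogt-1 against wild type under quantile normalisation (-0.021). Changes that kept their sign were not compared with the replicate SD. With 3 arrays a strain, estimates under the sizes needed to pass, given above, could not be called, and the cause of these movements was not tested.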
